A study of Mus musculus with 16 samples.

Results

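Genes of cell division and DNA replication were followed in whole mouse retina through oxygen-induced retinopathy (OIR), a model in which young mice breathe oxygen-rich air and then return to room air. The set was given as 44 gene symbols among the 43280 symbols counted in each library. All 44 had 10 or more counts in at least 2 libraries, and all 44 were among the 19905 genes tested. They comprised 14 genes of mitotic kinases, cyclins and the spindle checkpoint, 13 genes of the spindle, chromosomes and cytokinesis, 13 replication genes and 4 regulators of entry into S phase. The first 27 are called mitosis genes here.

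The retinas came from C57BL/6J wildtype mice. OIR animals were kept in 75% oxygen from postnatal day 7 to day 12 and in 21% oxygen from then on, and control animals breathed 21% oxygen throughout. Polyadenylated RNA was sequenced from control and OIR retina at P14 (2 libraries each), P17 (3 each) and P30 (3 each). Nothing in the labels says that replicates came from separate animals, so p-values measure the spread between these samples, which may be technical in some groups. Sex-linked RNA differed between the 2 P14 controls and among the 3 OIR libraries at P30, so neither group came from 1 animal alone.

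Dividing cells copy their DNA in S phase and separate the copies in mitosis. Cyclin D1 and the E2F factors drive entry into S phase, where the MCM2 to MCM7 helicase unwinds DNA and PCNA holds the polymerase on it. CDK1 with the B cyclins then starts mitosis, Aurora kinases and kinesins arrange the chromosomes on the spindle, and the anaphase-promoting complex, working with CDC20 and UBE2C, ends it. At these postnatal ages most retinal neurons have left the cell cycle, while endothelial cells, pericytes, glia and microglia can still divide. In whole retina, fewer cells of a type and less RNA per cell cannot be told apart.

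Library totals ran from 26077663 to 41716971 counted reads. The 44 genes together had 6265 to 17609 reads in a library, and 3 counts correspond to 0.0676 to 0.136 CPM (counts scaled by library size and TMM factor). Such floors cover counting error only. Lens genes and sex-linked RNA moved with some groups. A list of 14 lens genes held 0.000903% to 0.000978% of counts in OIR and 0.00378% to 0.114% in controls at P14, 0.272% to 5.25% in OIR and 0.0221% to 0.444% in controls at P17, and 3.20% to 7.76% in all P30 libraries. All 3 OIR libraries at P17 had the inactive-X RNA Xist at 114 to 158 CPM with at most 1 read of the Y-linked Ddx3y. The 3 P17 controls had Ddx3y at 25.8 to 33.3 CPM, so at P17 OIR and this sex difference cannot be told apart within the age. Xist was also high in 1 control at P14 (replicate 2, 913 CPM) and in 1 OIR library at P30 (replicate 2, 105 CPM).

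The cell division and replication genes were higher in OIR retina at P14 and P17 and close to control levels at P30. By edgeR's quasi-likelihood test with Benjamini-Hochberg adjustment (called at an adjusted p under 0.05), 28 of the 44 rose at P17, against 7.81% of all genes tested. At P14 7 of the 44 rose, against 0.723% of all genes, and at P30 1 of the 44 rose, against 4.96%. The median log2 fold change over the 44 genes was 0.81 at P14, 0.95 at P17 and 0.09 at P30, where the medians of all genes tested were -0.01, 0.00027 and 0.01. None was called lower at any of these ages by edgeR or DESeq2, and 0 had an unadjusted p under 0.05 in that direction. The shares of all genes called lower were 0.0955% at P14, 6.76% at P17 and 3.63% at P30.

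**Figure D1:**
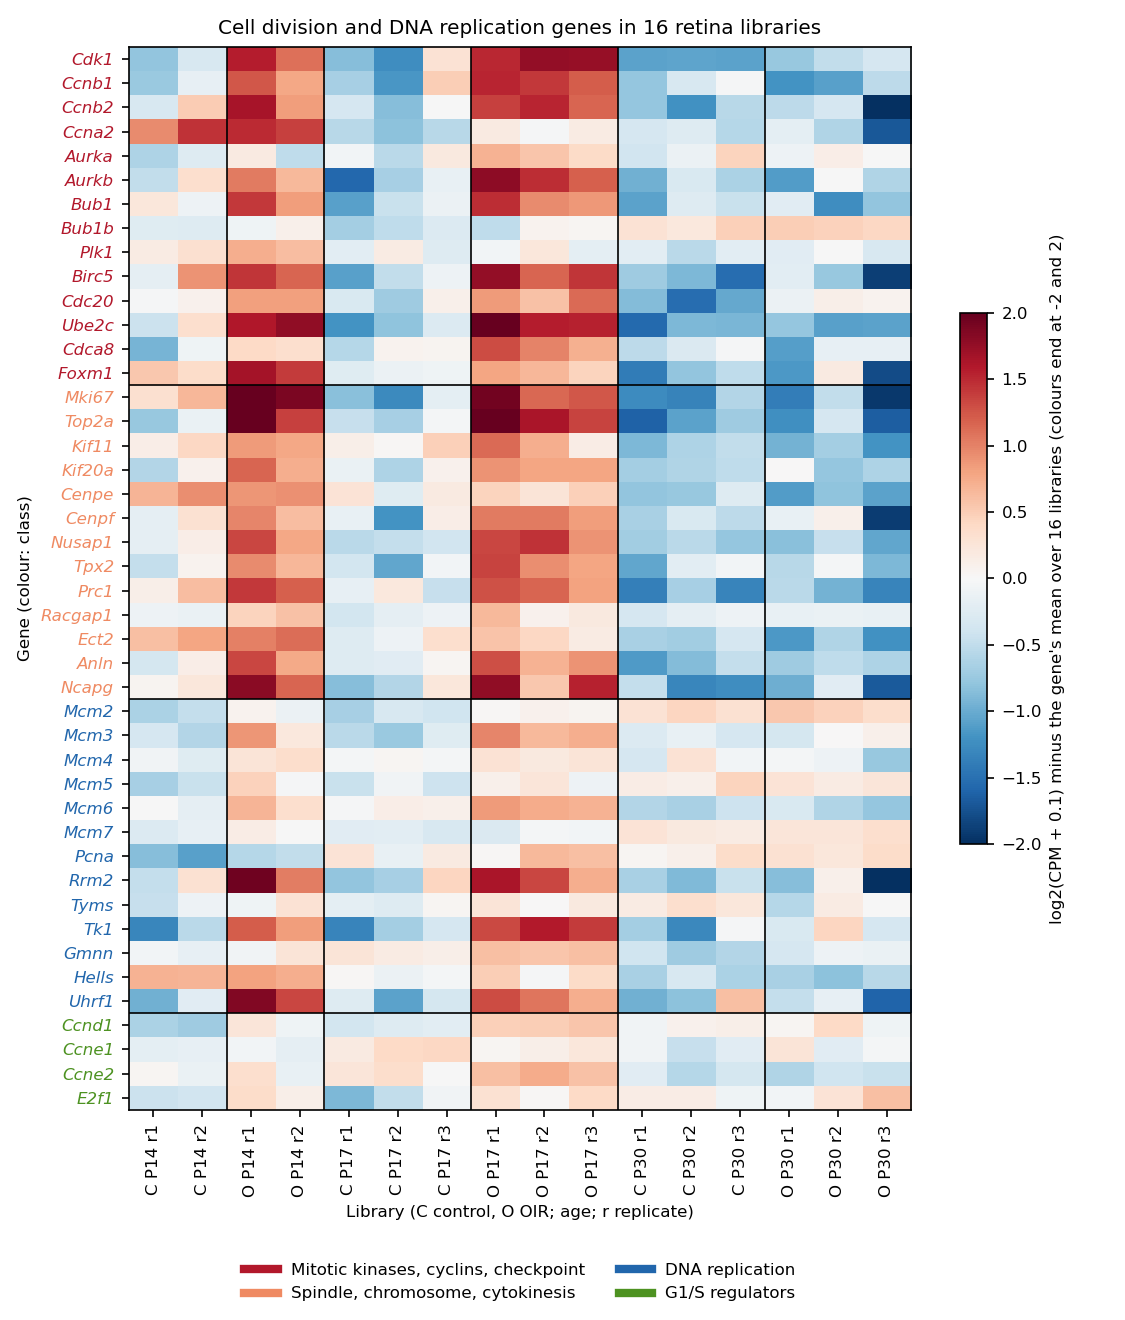
Level of each gene (rows, coloured by class) in each of the 16 libraries (columns), as log2(CPM + 0.1) minus that gene's mean over the libraries. The OIR columns at P14 and P17 are red over most of the mitosis genes, while the OIR columns at P30 look like the P30 controls. The MCM genes, Pcna and the cyclin E genes show paler colours.

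Libraries overlapped little at the earlier ages. Every OIR library was above every control in 38 of the 44 genes at P14 and in 33 at P17, where 19.7% and 15.9% of all genes did so. At P30 this held for 3 of the 44 genes, Cdk1, Cdc20 and Gmnn, against 15.4% of all genes. Set against the mean of the age-matched controls, the median log2 ratio over the 44 genes was 0.94 and 0.70 in the 2 OIR libraries at P14. At P17 the ratio was 1.06, 0.86 and 0.87 in the 3 OIR libraries, and at P30 it was 0.01, 0.13 and -0.10. The 3 OIR libraries at P17 were alike in the size of the shift, at lens shares of 5.25%, 4.03% and 0.272%.

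**Figure D2:**
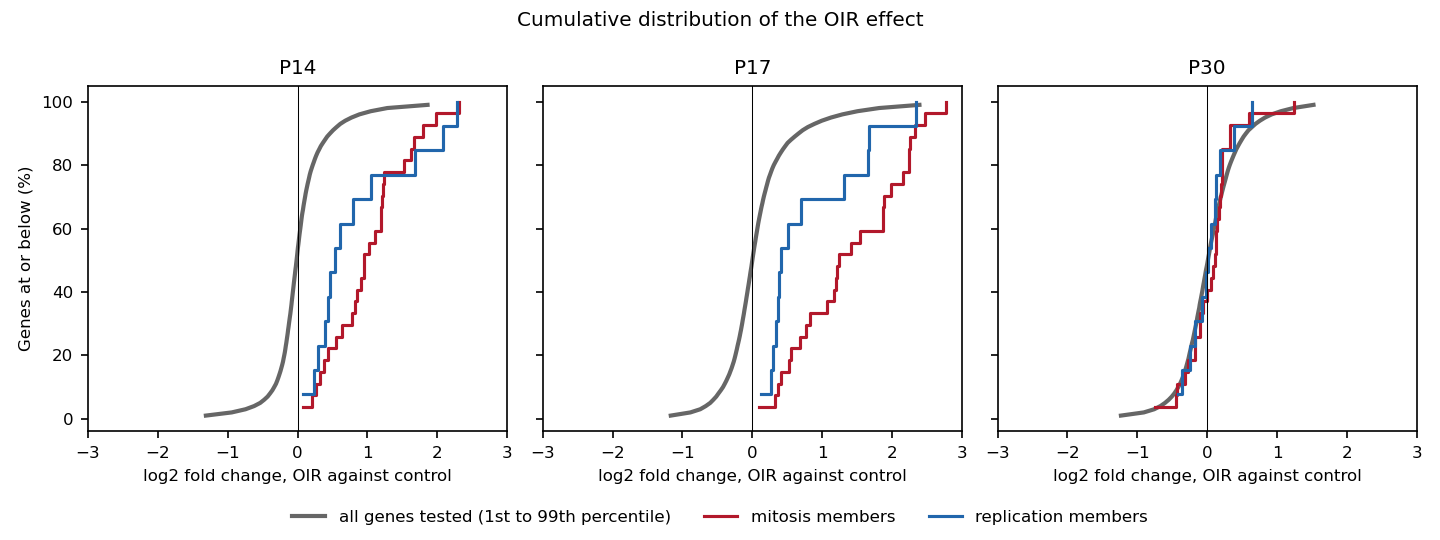
Cumulative share of genes (percent) by log2 fold change of OIR against control at each age, for all genes tested (grey), the 27 mitosis genes (red) and the 13 replication genes (blue). At P14 and P17 both coloured curves lie to the right of the grey curve, and at P30 the 3 curves lie on each other.

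The P17 count was lower in fits with a covariate for sex-linked or lens RNA. With Y-linked RNA as a covariate, an alternative added once the data had been seen, 2 of the 44 genes, Mcm3 and Ube2c, were called at P17. All 28 genes called without it kept a positive log2 fold change, with a median of 1.03 in place of 1.60 and a median SE of 0.442 in place of 0.302. At P17 this covariate moves with OIR, so its slope rests mainly on the P14 controls and the P30 OIR libraries. The fit therefore cannot tell sex from OIR at P17. At P14 both OIR libraries had Ddx3y at 35.9 and 40.0 CPM, as had control replicate 1 at 44.1 CPM, and 5 of the 44 genes were called there with that covariate. With a lens covariate, also added later, 19 genes were called at P17, and the median over the 28 was 1.53. OIR replicate 3 at P17, with lens genes at 0.272% of its counts, was above every control in 39 of the 44 genes, against 30.5% of all genes. Without the other 2 OIR libraries 12 genes were called, in a fit that assumes the lone OIR library varies like the other groups, and the median over the 28 was 1.31.

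**Figure D3:**
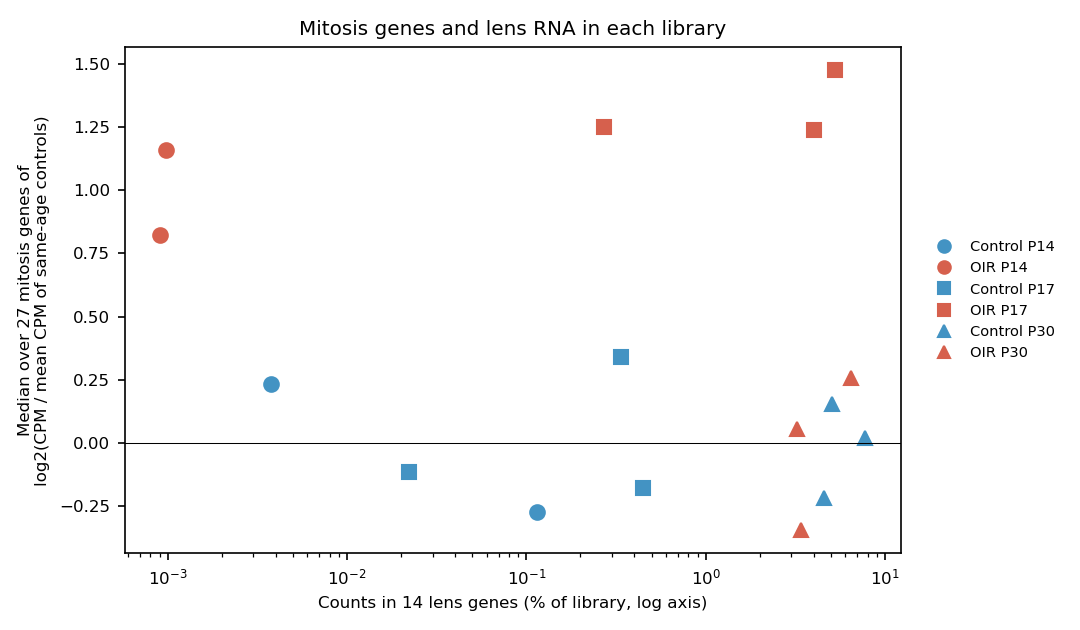
Median over the 27 mitosis genes of the log2 ratio of CPM to the mean of same-age controls (vertical axis), against the percent of counts in 14 lens genes (log axis), with 1 point per library. The OIR libraries at P14 and P17 lie at 0.82 or above at lens shares from 0.000903% to 5.25%, and the P30 libraries, with 3.20% or more, lie between -0.35 and 0.25. Controls lie near 0 by construction. Lens shares at P30 were 4.55% to 7.76% in controls and 3.20% to 6.44% in OIR. The P30 ratios therefore cannot show whether lens RNA moves these genes.

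Promoter sequence was available for 35 of the 44 genes, as 39 windows of 300 bases (250 before and 50 from the start site; RefSeq, GRCm38.p6, the same build as mm10). The windows show which cell cycle promoter letters these genes share. The CHR element (TTTGAA), the CCAAT box (CCAAT) and an E2F element (TTTCCCGC, TTTCGCGC, TTTGCCGC or TTTGGCGC) were searched on both strands. Matches may overlap, as where CCAAT boxes on opposite strands share letters in the Ube2c window. A CHR element was in 79.2% of the 24 mitosis windows, 7.69% of the 13 replication windows and 17.9% of all 32851 windows. A CCAAT box was in 87.5%, 76.9% and 37.4%, and an E2F element in 8.33%, 46.2% and 2.26%. Both a CHR element and a CCAAT box were in 75.0% of mitosis windows, 7.69% of replication windows and 6.95% of all windows. Printed are the windows of the 3 mitosis and 2 replication genes with the smallest p at P17 among those with an entry, with matches in capitals, so that windows with and without matches can be set side by side. Ube2c (chr2:164769679-164769978, plus strand) has 6 CCAAT boxes and 1 CHR element, Cdk1 (chr10:69352863-69353162, minus strand) has all 3 motifs, and Mcm3 (chr1:20820263-20820562, minus strand) has CCAAT boxes and E2F elements. Nusap1 (chr2:119618048-119618347, plus strand) and Tk1 (chr11:117825965-117826264, minus strand) have no match, which says only that these letters are not in these windows.
Ube2c: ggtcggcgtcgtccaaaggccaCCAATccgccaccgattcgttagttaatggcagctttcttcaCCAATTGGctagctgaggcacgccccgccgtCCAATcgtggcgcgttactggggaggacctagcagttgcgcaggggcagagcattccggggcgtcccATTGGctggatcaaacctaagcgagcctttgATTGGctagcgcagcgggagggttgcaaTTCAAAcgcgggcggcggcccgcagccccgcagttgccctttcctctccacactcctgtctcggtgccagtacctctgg
Cdk1: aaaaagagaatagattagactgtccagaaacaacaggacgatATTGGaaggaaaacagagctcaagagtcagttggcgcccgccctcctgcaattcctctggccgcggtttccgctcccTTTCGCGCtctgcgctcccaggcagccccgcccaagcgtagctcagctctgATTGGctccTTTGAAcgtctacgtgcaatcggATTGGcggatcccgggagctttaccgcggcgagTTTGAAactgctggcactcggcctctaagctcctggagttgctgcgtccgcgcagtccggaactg
Nusap1: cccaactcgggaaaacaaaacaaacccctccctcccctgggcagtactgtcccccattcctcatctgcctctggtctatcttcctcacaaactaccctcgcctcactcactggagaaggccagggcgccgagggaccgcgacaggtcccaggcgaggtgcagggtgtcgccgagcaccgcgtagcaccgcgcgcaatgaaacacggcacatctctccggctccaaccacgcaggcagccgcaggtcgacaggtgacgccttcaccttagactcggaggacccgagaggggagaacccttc
Mcm3: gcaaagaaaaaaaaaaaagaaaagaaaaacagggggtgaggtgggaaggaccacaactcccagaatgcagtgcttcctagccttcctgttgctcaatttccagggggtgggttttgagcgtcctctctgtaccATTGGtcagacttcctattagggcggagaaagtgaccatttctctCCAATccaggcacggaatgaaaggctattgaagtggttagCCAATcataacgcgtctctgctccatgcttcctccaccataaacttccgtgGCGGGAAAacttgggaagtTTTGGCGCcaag
Tk1: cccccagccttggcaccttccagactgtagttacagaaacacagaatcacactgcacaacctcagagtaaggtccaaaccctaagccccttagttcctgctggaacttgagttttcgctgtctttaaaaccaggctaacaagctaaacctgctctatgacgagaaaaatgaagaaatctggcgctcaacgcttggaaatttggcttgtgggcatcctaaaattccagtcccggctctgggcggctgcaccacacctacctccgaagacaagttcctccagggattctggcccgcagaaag

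Among the kinases, cyclins and checkpoint genes, Cdk1, the kinase that starts mitosis, stood at 0.861 and 1.24 CPM in the P14 controls and at 4.85 and 3.48 CPM in OIR. At P17 it stood at 0.826, 0.601 and 1.94 CPM in controls and at 4.66, 5.54 and 5.48 CPM in OIR. No OIR library at either age overlapped a control. Cdk1 rose 3.95-fold at P14 (log2 1.98, SE 0.369, adjusted p = 0.0124) and 4.75-fold at P17 (log2 2.25, SE 0.302, adjusted p = 9.61e-05). At P30 it was at 0.691, 0.704 and 0.694 CPM in controls and 0.885, 1.08 and 1.23 CPM in OIR, which did not overlap and did not pass the test (log2 0.60, adjusted p = 0.298).

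Ube2c, the ubiquitin-conjugating enzyme of the anaphase-promoting complex, had the largest P17 fold change of the 44 genes. It went from 0.284, 0.401 and 0.623 CPM in controls to 3.92, 2.49 and 2.44 CPM in OIR, 6.84-fold (log2 2.77, SE 0.323, adjusted p = 2.81e-05). Its lowest OIR library was well above its highest control. At P14 Ube2c was at 0.548 and 1.01 CPM in controls and 2.56 and 2.89 CPM in OIR (log2 1.80, SE 0.365, adjusted p = 0.0226). Aurkb, the Aurora kinase of the chromosomal passenger complex, was at 0.181, 0.429 and 0.658 CPM in P17 controls and at 2.80, 2.24 and 1.83 CPM in OIR (log2 2.47, SE 0.397). Its passenger complex partners Birc5, or survivin, and Cdca8, or borealin, also rose at P17, by 2.25 and 1.20 on the log2 scale. Aurkb, Birc5 and Cdca8 were not called at P14, with log2 fold changes of 0.96, 0.90 and 0.86.

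In all, 10 of the 14 genes of this class rose at P17 and 2, Cdk1 and Ube2c, at P14, against 7.81% and 0.723% of all genes. The cyclin B genes Ccnb1 and Ccnb2, partners of CDK1, both rose by 1.87 at P17, and the checkpoint kinase gene Bub1 rose by 1.99. Cyclin A2 (Ccna2), which acts in S phase and early mitosis, rose by 0.76 (adjusted p = 0.0467), a call that ended in 17 of 25 alternative settings. The other 4 did not pass: Aurka, the spindle pole kinase, at 0.68, Foxm1, a transcription factor of mitotic genes, at 0.82, Bub1b, a checkpoint protein, at 0.37 and Plk1, the polo-like kinase, at 0.10.

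**Figure D4:**
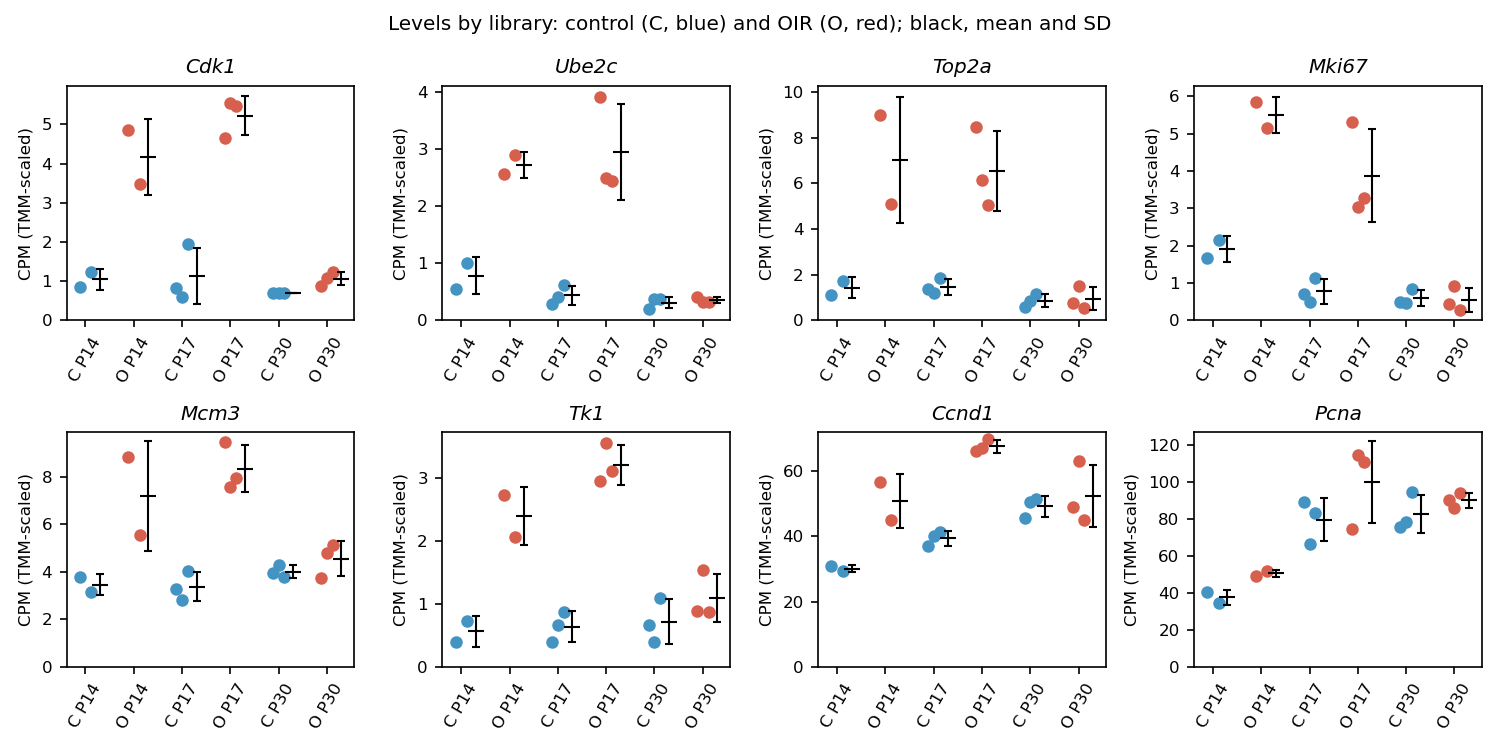
CPM of 8 genes in each library, control in blue and OIR in red, with the group mean and SD in black and each axis starting at 0. The OIR points lie above all controls of the same age at P14 and P17 in every panel, except for Pcna at P17, and at P30 the groups overlap in every panel except Cdk1.

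Of the 13 spindle, chromosome and cytokinesis genes, 10 rose at P17 and 1, Top2a, at P14, against 7.81% and 0.723% of all genes. Top2a, the topoisomerase that untangles replicated chromosomes, was at 1.10 and 1.74 CPM in the P14 controls and 9.00 and 5.09 CPM in OIR. At P17 it was at 1.37, 1.17 and 1.87 CPM in controls and 8.46, 6.14 and 5.05 CPM in OIR. The groups were far apart at both ages, with log2 fold changes of 2.30 (SE 0.404, adjusted p = 0.0101) and 2.16 (SE 0.331, adjusted p = 3.68e-04). At P30 Top2a was at 0.559, 0.857 and 1.13 CPM in controls and 0.759, 1.50 and 0.545 CPM in OIR, which overlapped.

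Mki67, which encodes the proliferation antigen Ki-67 that coats mitotic chromosomes, was at 1.67 and 2.15 CPM in controls and 5.85 and 5.15 CPM in OIR at P14. Its P14 log2 fold change of 1.52 (SE 0.384) did not pass the test (adjusted p = 0.0876), although the libraries did not overlap. At P17 it went from 0.697, 0.487 and 1.14 CPM to 5.32, 3.05 and 3.27 CPM and rose by 2.33 (SE 0.347, adjusted p = 2.33e-04). At P30 Mki67 was at 0.493, 0.459 and 0.840 CPM in controls and 0.443, 0.909 and 0.272 CPM in OIR, with overlap. Nusap1, a spindle microtubule-binding protein, was at 0.490, 0.515 and 0.554 CPM in P17 controls and 2.06, 2.24 and 1.49 CPM in OIR (log2 1.89, SE 0.270). The control libraries of Nusap1 lay close together and well below OIR.

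Ncapg, a condensin subunit, rose by 2.26 at P17 on 88 reads in OIR and 15 in controls, and had 0 reads in OIR replicate 3 at P30, which allows up to 0.136 CPM. Further members that rose at P17 were the spindle assembly factor Tpx2 (1.54), the kinetochore protein gene Cenpf (1.41), the central spindle genes Prc1 (1.25), Kif20a (1.07) and Racgap1 (0.55), and Anln, which encodes the cytokinetic ring protein anillin (1.16). The calls of Cenpf, Ncapg and Racgap1 ended in 7, 6 and 5 of 25 alternative settings. Those that did not pass were the motor genes Kif11 (0.53) and Cenpe (0.32) and the cytokinesis activator Ect2 (0.41).

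**Figure D5:**
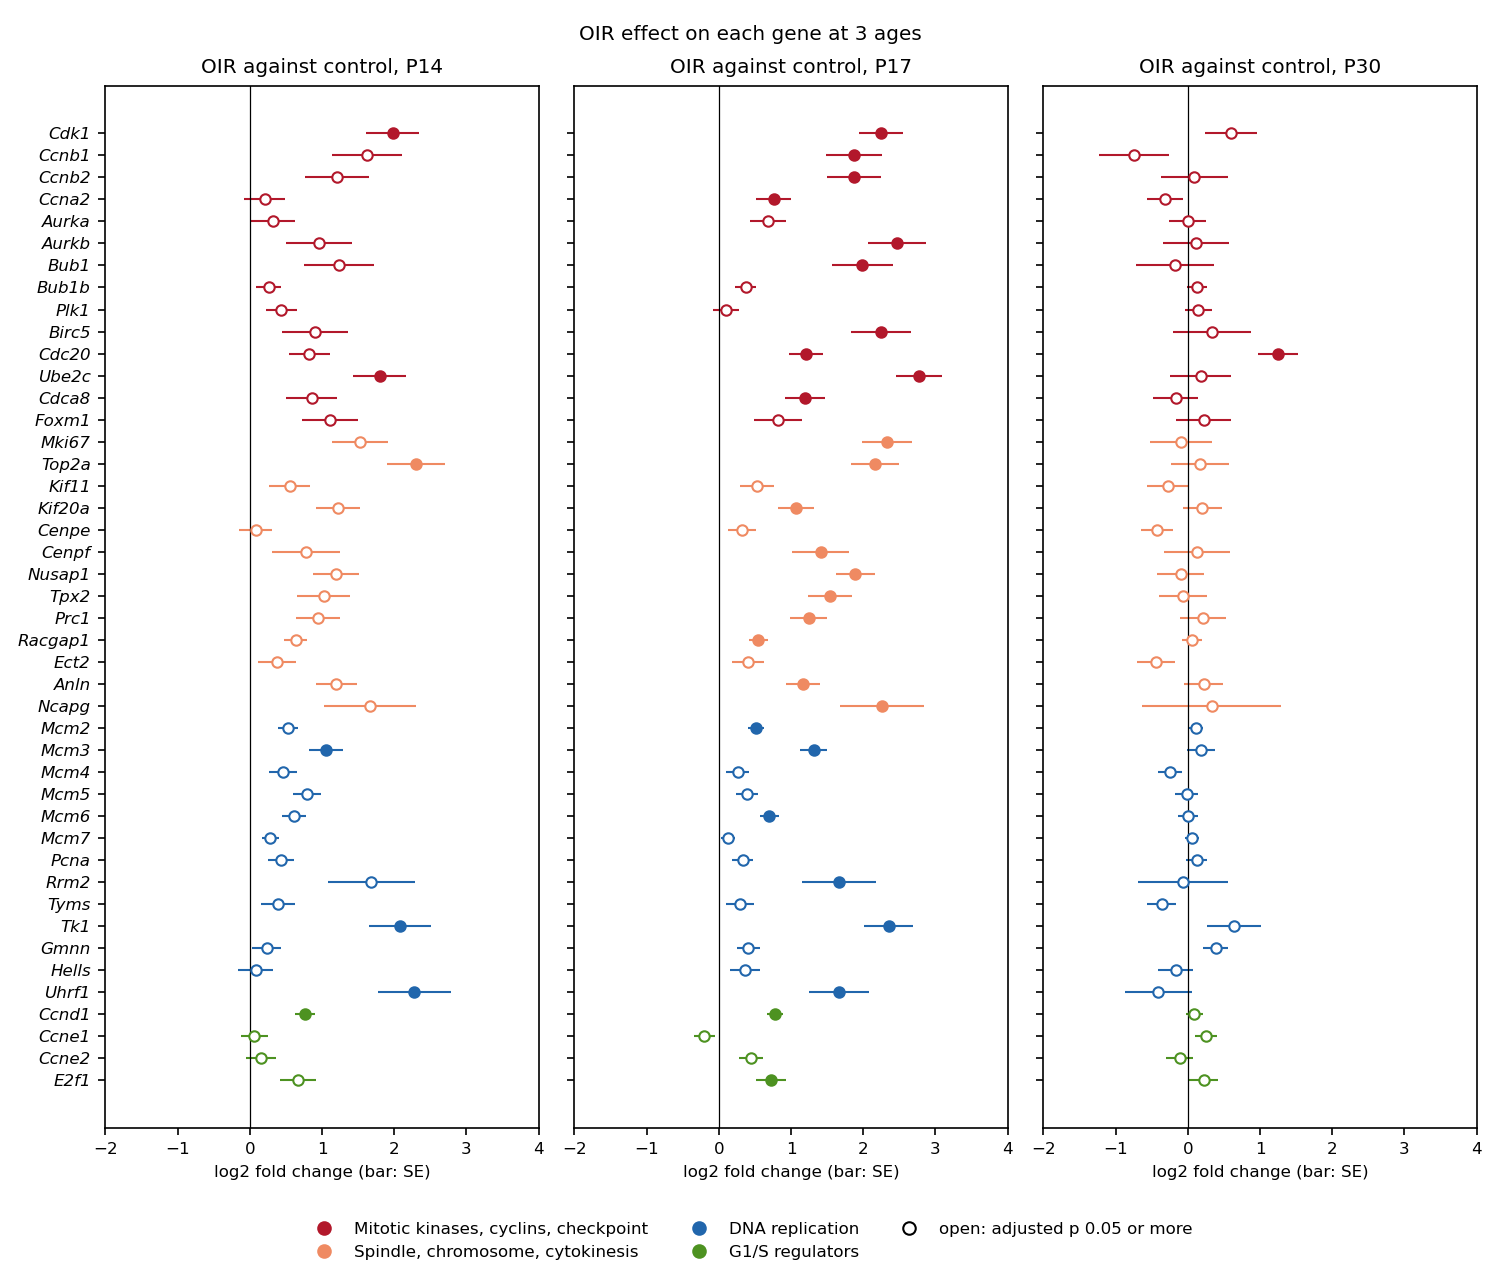
Log2 fold change of OIR against control for each of the 44 genes at P14, P17 and P30, with bars of 1 SE and colours by class. Filled points were called at an adjusted p under 0.05, which is 7 genes at P14, 28 at P17 and Cdc20 alone at P30.

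Of the 13 replication genes, 6 rose at P17 (Mcm2, Mcm3, Mcm6, Rrm2, Tk1 and Uhrf1) and 3 at P14 (Mcm3, Tk1 and Uhrf1). Over all genes tested the shares were 7.81% and 0.723%. The helicase subunits moved by unequal amounts. Mcm3 was at 3.76 and 3.13 CPM in controls and 8.83 and 5.55 CPM in OIR at P14, and at 3.25, 2.81 and 4.01 CPM in controls and 9.46, 7.57 and 7.96 CPM in OIR at P17. No OIR library overlapped a control, and the log2 fold changes were 1.06 (SE 0.233, adjusted p = 0.0396) and 1.31 (SE 0.191, adjusted p = 1.89e-04). Mcm6 went from 9.32, 10.4 and 10.2 CPM to 17.2, 16 and 15.4 CPM at P17, which did not overlap, and rose by 0.70 (SE 0.132).

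Mcm2 was at 8.31, 10.5 and 10 CPM in P17 controls and 13.4, 14.0 and 13.7 CPM in OIR, and rose by 0.51 (SE 0.110, adjusted p = 0.0040). Mcm4, Mcm5 and Mcm7 did not pass at P17, with log2 fold changes of 0.26, 0.39 and 0.13. At P14 Mcm2 was at 8.48 and 9.45 CPM in controls and 13.9 and 12.1 CPM in OIR and did not pass (log2 0.53, adjusted p = 0.0910). All 6 MCM genes were higher in every OIR library than in any control at P14, as were 19.7% of all genes. Mcm3 alone was called. Each of the 6 had an unadjusted edgeR p under 0.05 there, as had 1080 of the 19905 genes tested in the higher direction.

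Tk1, the thymidine kinase of the salvage pathway, went from 0.391 and 0.732 CPM to 2.72 and 2.07 CPM at P14 and from 0.387, 0.658 and 0.865 CPM to 2.95, 3.56 and 3.11 CPM at P17. It rose 4.22-fold and 5.10-fold (log2 2.08, SE 0.428, and 2.35, SE 0.346), with no overlap at either age. Uhrf1, which helps to copy DNA methylation, went from 0.626 and 1.11 CPM to 5.02 and 3.48 CPM at P14. Its log2 fold change was 2.28 (SE 0.507) at P14 and 1.66 (SE 0.418) at P17. Rrm2, the regulated subunit of ribonucleotide reductase, rose by 1.66 at P17 (adjusted p = 0.0394), and this call ended in 11 of 25 alternative settings.

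Pcna, the polymerase clamp, was at 40.4 and 34.5 CPM in controls and 49.3 and 52.0 CPM in OIR at P14, and at 89.0, 66.4 and 83.3 CPM in controls and 74.5, 115 and 111 CPM in OIR at P17. The P17 groups overlapped, and Pcna did not pass at P14 (log2 0.43, adjusted p = 0.413) or P17 (log2 0.33, adjusted p = 0.145). A near-identical copy, Pcna-ps2, is counted under its own symbol, so the level of Pcna is uncertain. Tyms, the thymidylate synthase gene, Gmnn, whose product geminin blocks relicensing, and Hells, a chromatin remodeller, had P17 log2 fold changes of 0.29, 0.41 and 0.36 and did not pass.

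Among the S-phase regulators, Ccnd1, the gene of cyclin D1, was at 30.8 and 29.3 CPM in controls and 56.7 and 45.0 CPM in OIR at P14. At P17 it was at 37.0, 40.0 and 41.4 CPM in controls and 66.2, 67.0 and 69.8 CPM in OIR. The groups did not overlap, and Ccnd1 rose by 0.76 (SE 0.140, adjusted p = 0.0116) at P14 and 0.78 (SE 0.114, adjusted p = 1.96e-04) at P17. At P30 it was at 45.6, 50.4 and 51.5 CPM in controls and 48.9, 63.2 and 44.9 CPM in OIR, with overlap. E2f1, a transcription factor of S-phase genes, went from 2.63, 3.52 and 4.74 CPM to 6.18, 5.06 and 6.63 CPM at P17 and rose by 0.72 (SE 0.204), a call that ended in 7 of 25 alternative settings. The cyclin E genes Ccne1 and Ccne2 did not pass, with P17 log2 fold changes of -0.20 and 0.45. Ccne1 was the single member with a negative value at P17.

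The size of the change differed between members of low and higher level, which was not examined apart from class. Of the 16 members with a mean under 2 CPM over the 16 libraries, 14 rose at P17, and the median of the log2 fold change was 1.87. Of the 28 members at 2 CPM or more, 14 rose, with a median of 0.62. Over all genes tested, at any level, 7.81% rose at P17. The mitosis genes had a median of 1.25 at P17, the replication genes 0.41 and the S-phase regulators 0.58. At P14 these medians were 0.96, 0.53 and 0.41.

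The P14 count of 7 was 0 without control replicate 1, without control replicate 2 or without OIR replicate 1. Each of these fits leaves 1 library in a group and assumes that it varies like the other groups. The median log2 fold change of the 7 genes, 1.98 with all libraries, was then 1.70, 2.31 and 1.84, and each of the 7 stayed above 0. With the lens covariate the count was also 0, at a median of 1.93. Both OIR libraries at P14 had a lower lens share than both controls, so this covariate moves with OIR there. The P14 calls of Uhrf1 and Mcm3 ended in 15 and 13 of 25 alternative settings, and those of Ube2c and Tk1 in 6 and 5. With DESeq2 14 members were called and without a count filter 17. Of the 44 members 29 had an unadjusted p under 0.05 at P14, all higher in OIR. Of the 19905 genes tested, 1080 were higher in OIR at that threshold. All 7 genes called at P14 were also called at P17, which is 100% of the P14 list and 25% of the P17 list. The same overlap over all genes was not counted, so it is not shown to be particular to these genes.

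At P30 Cdc20, the activator of the anaphase-promoting complex, was the 1 member called. It was at 0.789, 0.459 and 0.694 CPM in controls and 1.39, 1.64 and 1.59 CPM in OIR, which did not overlap (log2 1.25, SE 0.273, adjusted p = 0.0144). The call ended in a fit of the P30 libraries alone and without control replicate 2 at P30. Cdc20 had also risen at P17, by 1.21, while its P14 log2 fold change of 0.82 did not pass. Mcm2 and Pcna overlapped at P30, at 16.2, 17.8 and 16.2 CPM against 19.1, 18.2 and 16.8 CPM and at 75.6, 78.3 and 94.3 CPM against 90.5, 86.0 and 94.1 CPM, controls first.

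The OIR effect differed between P17 and P30 in 14 of the 44 members, all lower at P30, against 3.84% of all genes in that direction. These were Cdk1, Ccnb1, Aurkb, Ube2c, Cdca8, Mki67, Top2a, Nusap1, Tpx2, Mcm3, Mcm6, Tk1, Uhrf1 and Ccnd1. The largest drop was that of Ccnb1 (-2.62, SE 0.623, adjusted p = 0.0150), and the smallest that of Ccnd1 (-0.69, SE 0.161, adjusted p = 0.0135). The count was 4 with the lens covariate, 1 with the Y-linked covariate and 1 without the 2 lens-rich OIR libraries at P17. It was 9 without control replicate 1 at P17, 8 without control replicate 2 at P17, 7 without OIR replicate 1 at P17, 9 without control replicate 2 at P30 and 7 without control replicate 3 at P30. Between P14 and P17 the OIR effect differed in 0 members by edgeR and by DESeq2 (2 at an unadjusted p under 0.05), where 0% of all genes were called higher.

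Over control ages the members did not move as a block. From P14 to P17 in controls, 5 fell and 3 rose, against 21.9% and 18.3% of all genes, so the members' shares of 11.4% and 6.82% were below the background. Ccna2 fell from 14.3 and 20.4 CPM to 4.98, 4.15 and 4.98 CPM (log2 -1.88, SE 0.263, adjusted p = 4.87e-05), without overlap. Mki67 (-1.32), Cenpe (-0.75), Ect2 (-0.72) and Hells (-0.77) also fell, while Pcna (1.09), Ccnd1 (0.39) and Ccne1 (0.52) rose. Cenpe went from 4.07 and 4.87 CPM to 3.05, 2.09 and 2.84 CPM, and Ccne1 from 5.43 and 5.61 CPM to 7.12, 8.27 and 8.34 CPM. The calls of Ect2, Ccne1 and Ccnd1 ended in 6, 6 and 5 of 25 alternative settings. The count of members that fell was 1 without control replicate 2 at P14 and 3 without control replicate 2 at P17.

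From P17 to P30 in controls, 9 members fell and 5 rose, which is 20.5% and 11.4% of the 44, against 13.4% and 14.9% of all genes. The MCM genes went in both directions. Mcm2 (0.80, adjusted p = 5.14e-05), Mcm5 (0.54) and Mcm7 (0.46) rose, and Mcm6 fell by 0.63 on the log2 scale, from the P17 levels given above to 6.25, 5.97 and 7.08 CPM. Bub1b rose by 0.82, from 10.1, 11.3 and 13.3 CPM to 19.8, 18.6 and 22.6 CPM, and Ccnd1 rose by 0.32. The others that fell were Prc1 (-1.06), Kif11 (-0.93), Cdc20 (-0.93), Gmnn (-0.78), Anln (-0.71), Cenpe (-0.70), Ccne2 (-0.60) and Ccne1 (-0.58). The call of Ccnd1 ended in 15 of 25 alternative settings, both other scalings among them, with log2 values from 0.09 to 0.37, and those of Anln and Mcm5 ended in 11 and 5. The count that fell was 2 with the lens covariate, 5 without control replicate 1 at P30 and 5 without control replicate 2 at P30.

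Scaling by library totals moved the median log2 fold change of all genes to -0.12 from P14 to P17 and to -0.23 from P17 to P30, and the members' medians from -0.07 to -0.18 and from -0.23 to -0.46. The split of higher and lower members then became 1 and 7 in place of 3 and 5, and 2 and 13 in place of 5 and 9. The control and OIR comparisons share control libraries and are given side by side without a test between them.

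Other genes of the cell cycle were counted from 3 wider lists that exclude the members. Of 65 further mitosis genes tested, 25 rose and 1 fell at P17, 2 rose at P14 (6 higher and 1 lower by DESeq2), and 1 rose and 2 fell at P30. Of 56 replication genes, 9 rose and 1 fell at P17, 2 rose at P14, and 0 were called at P30 by edgeR, while DESeq2 called 1 higher and 2 lower (13 had an unadjusted edgeR p under 0.05). Of 25 cycle control genes, 4 rose at P17, 0 were called at P14 by edgeR or DESeq2 (4 at an unadjusted p under 0.05), and 2 rose and 1 fell at P30. DESeq2 called 28 mitosis genes higher and 1 lower at P17, and 2 higher and 3 lower at P30. It called 7 cycle control genes higher and 1 lower at P17, and 2 higher and 4 lower at P30. Over all genes tested, edgeR called 0.723% higher and 0.0955% lower at P14. These shares were 7.81% and 6.76% at P17, and 4.96% and 3.63% at P30. Medians of the 3 lists at P17 were 0.80, 0.20 and 0.11.

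Hmgb2, a chromatin protein abundant in dividing cells, rose by 1.54 (SE 0.162, adjusted p = 1.22e-05) at P17, from 12.3, 11 and 11.8 CPM to 35.2, 27.1 and 39.5 CPM. Cep55, needed for the final cut between daughter cells, rose by 3.14, from 0.129, 0.0859 and 0.138 CPM to 1.17, 1.06 and 0.947 CPM. The symbol 2810417H13Rik, listed by RefSeq as a synonym of the PCNA-associated factor Pclaf, rose by 3.20 at P14 and 3.30 at P17. At P14 Hmmr (2.17), a spindle protein gene, the microtubule depolymerase gene Kif2c (2.43) and Chaf1b (2.06), of the chromatin assembly factor, were the other genes called. The histone chaperone gene Asf1b (1.35), the origin licensing gene Cdc6 (1.88), the transcription factor genes Mybl2 (1.57) and E2f8 (2.10), Fam64a (2.24) and the D-type cyclin gene Ccnd3 (0.36) rose at P17.

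Spc25, a subunit of the NDC80 kinetochore complex, was the 1 further mitosis gene called lower at P17. It was at 35.4 and 33.5 CPM in controls and 18.7 and 15.5 CPM in OIR at P14, at 50.0, 62.5 and 45.8 CPM against 25.5, 44.3 and 30.3 CPM at P17, and at 71.5, 86.2 and 73.8 CPM against 50.2, 36.1 and 53.1 CPM at P30. Every OIR library was below every control of its age. Spc25 fell by 0.66 (adjusted p = 0.0296) at P17 and fell by 0.73 (adjusted p = 0.0307) at P30, and its P14 value of -1.01 did not pass (adjusted p = 0.0736). Its complex partner Spc24 rose by 1.43 at P17 and 1.11 at P30, at far lower levels than Spc25. Spc24 was at 0.568, 0.658 and 0.623 CPM in P17 controls and 1.43, 2.08 and 1.465 CPM in OIR. At P30 it was at 0.395, 0.643 and 0.475 CPM against 1.23, 0.839 and 1.23 CPM. Whether the 2 genes reflect the same cells was not tested. The single-strand binding subunit gene Rpa1 was the 1 replication gene that fell at P17, with -0.28, and together with the P17 value of Spc25 it was picked out after its values were seen. At P30 Cdc25c, a phosphatase that activates CDK1, fell by 1.07, Lin52, of the complex that represses cell cycle genes in resting cells, fell by 0.35, and Fzr1, an activator of the anaphase-promoting complex, rose by 0.41.

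Markers of cell types that can divide were followed at the same ages. At P17, summed levels of 14 endothelial markers were 402 to 479 CPM in controls and 612 to 756 CPM in OIR, and 10 of the 14 rose. Of 8 pericyte markers 6 rose (158 to 182 against 303 to 410 CPM), of 12 microglia markers 9 rose (102 to 129 against 206 to 256 CPM), and of 5 astrocyte markers 3 rose (80.6 to 86.5 against 247 to 400 CPM). None of these markers was at 0 in a P17 library. Over all genes tested, 7.81% rose and 6.76% fell at P17. Of 8 Müller glia markers 4 fell, and of 8 retinal progenitor markers tested 1 rose and 2 fell, at 537 to 572 CPM in controls and 430 to 449 CPM in OIR. Their part in the rise of the cell division genes was not tested.

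At P14, where 7 division genes rose, 0 of 14 endothelial, 0 of 8 pericyte and 0 of 12 microglia markers were called by edgeR, with 5, 3 and 1 at an unadjusted p under 0.05. DESeq2 called 1 endothelial marker higher, 2 pericyte markers lower and 0 microglia markers. Their summed levels in controls and OIR were 560 to 598 and 608 to 657 CPM, 187 to 196 and 160 to 194 CPM, and 98.9 to 100 and 106 to 119 CPM. The summed level of the astrocyte markers differed at this age, at 61.5 to 63.6 CPM in controls and 172 to 176 CPM in OIR. Of the 5, 1 rose, Gfap, the intermediate filament of astrocytes that stressed Müller glia also make, by 3.01. The median log2 fold change over the 5 was 0.59 and the lowest -0.25, with 2 at an unadjusted edgeR p under 0.05. At P14 1 of 8 Müller glia markers fell and 1 of 8 progenitor markers rose, where 0.0955% and 0.723% of all genes tested did so. At P30 the endothelial sum was still 361 to 401 CPM in OIR against 244 to 274 CPM in controls, with 4 markers called higher, and 7 of 12 microglia markers were called higher, at an age where 1 division gene was. The astrocyte sums at P30 were 105 to 117 CPM in controls and 179 to 291 CPM in OIR, with 2 of 5 called higher. Over all genes tested, 4.96% were called higher at P30. Of 5 lens epithelium markers 0 were called at P17 by edgeR or DESeq2 (2 at an unadjusted p under 0.05). Their log2 fold changes were 2.49 for Pitx3, 1.48 for Foxe3 and 0.70 for Cdh1, and -0.41 for Prox1 and -0.14 for Pax6, which neurons of the retina also express.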

How the data were processed

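RNA from whole retina was measured in 16 libraries of 6 groups, named in each sample's title. Per the labels' protocols, an Ion Total RNA-seq Kit (version 2) and an Ion Proton were used, and Torrent Suite 5.4.0 aligned reads to mm10 with STAR and then Bowtie2 and counted them per gene with HTSeq. The values deposited by the authors are raw counts per gene symbol with no normalization. Aligner versions, the annotation and the strand setting are not given in the sources at hand, so reads of antisense partners and near-identical copies may be misassigned.

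filterByExpr kept genes by group size (minimum count 10, minimum total 15), scaled by TMM and fitted together in edgeR 4.0.16 (R 4.3.3) by robust quasi-likelihood with 10 residual degrees of freedom. P-values were Benjamini-Hochberg adjusted over all 19905 genes. Each SE is the absolute log2 fold change divided by the root of F. The test was checked on simulated data with known changes. No 2 libraries were identical. DESeq2 1.42.0, other scalings, no filter, a replicate block, the compared groups alone and leaving out each library were alternatives; lens and Y-linked covariates and leaving out 2 lens-rich libraries were added after seeing the data. The lens covariate is the log2 percent of counts in 14 lens genes, and the Y-linked covariate the log2 summed CPM of Ddx3y, Eif2s3y, Kdm5d and Uty plus 1.

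The members, lists and tests were chosen with earlier results of these data known. Values in every library are given for up to 3 called members a class with the smallest p in each comparison and for Mki67, Top2a, Cdk1, Mcm2, Pcna and Ccnd1, of which the text prints a part.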

Additional observations from a re-analysis of the deposited data

Results flagged for a closer look

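The OIR effect on 14 of the 44 members differed between P17 and P30 by the edgeR quasi-likelihood test of the difference itself, with the effect lower at P30 in each. The differences in log2 fold change, P30 minus P17, were -1.65 for Cdk1, -2.62 for Ccnb1, -2.35 for Aurkb, -2.60 for Ube2c and -1.36 for Cdca8 among the kinases, cyclins and checkpoint genes. They were -2.43 for Mki67, -1.99 for Top2a, -1.99 for Nusap1 and -1.60 for Tpx2 among the spindle and chromosome genes. For the replication genes they were -1.13 for Mcm3, -0.69 for Mcm6, -1.71 for Tk1 and -2.08 for Uhrf1, and for Ccnd1 -0.69. Lens RNA and sex-linked RNA also differed between these groups, and their part was not tested beyond the covariate counts given above.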

How the results depend on the processing

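In the comparisons of 2 groups, no value of a called member reversed in sign under any alternative run. The difference between P17 and P30 was not checked in this way gene by gene. At P14 the count of 7 was 17 without a count filter, 14 with DESeq2 and 0 with the lens covariate, and 0 to 9 when 1 library was left out. At P17 the count of 28 was 2 with the Y-linked covariate and 12 without the 2 most lens-rich OIR libraries, while the 28 genes stayed above 0 with medians of 1.03 and 1.31 (1.60 in all libraries without a covariate). At P30 the count of 1 was 0 in a fit of the compared groups only and 0 to 1 when 1 library was left out. The difference between P17 and P30, 14 members, was 4 with the lens covariate, 1 with the Y-linked covariate, 1 without the lens-rich libraries and 7 to 15 when 1 library was left out. Control members that fell numbered 1 to 7 (from P14 to P17) and 5 to 9 (from P17 to P30) when 1 library was left out, and 2 with the lens covariate from P17 to P30. These covariates and the removal of lens-rich libraries were chosen after seeing the data, and the causes were not tested. At P17 the Y-linked covariate moves with OIR, so that fit cannot tell sex from OIR there.

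With a replicate block the counts were 5 at P14, 26 at P17, 1 at P30 and 12 for the difference between P17 and P30, and 5 and 8 members fell over control ages. Same-numbered libraries did not deviate together (correlations of deviations from -0.21 to 0.05). With 2 or 3 libraries in a group this cannot exclude pairing, and the main fit did not treat the numbers as pairs. Genes under 2 CPM rest on few reads, which limits single calls.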
